A study of Mus musculus with 24 samples.

Results

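Stromal cells of oral tumours whose cancer cells carried a hairpin against EGR2 were compared with those of tumours carrying the non-targeting hairpin PLKO, in mice fed the control diet. The comparison used 9 of the 24 mouse expression arrays of the series, taken as every array whose title gives one of these hairpins with the control diet. They were 3 arrays of shEGR2_40.9, 3 of shEGR2_38.9 and 3 of PLKO. All came from orthotopic tumours of the oral squamous carcinoma cell line SCC25, which is human, in NOD-SCIDγ (NSG) mice, which lack T, B and natural killer cells but keep monocytes, macrophages and granulocytes. The cells measured are labelled as a neural fraction, and their RNA was isolated with magnetic beads. The age of the mice, the number of animals behind a group and the degree of silencing are not given in the sources used here. For 2 comparisons, the same hairpins on the diet rich in palmitic acid (PA, 9 arrays) and the hairpin shGAL against galanin on the control diet (3 arrays) were also used.

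The hairpins acted in human tumour cells, while the arrays measured mouse RNA of the host, and binding of human transcripts to the mouse probes was not tested. The series calls the 3 arrays of a group technical replicates, so the p-values measure only the spread between these arrays, whose number limits the precision. Levels are on the authors' log2 scale, on which a difference of 1 is a doubling. Replicate 3 of shEGR2_38.9 stood apart. Its Gapdh control probes differed by 0.762 between the 3′ and 5′ ends, against -0.118 to 0.077 in the other 23 arrays of the series, and its mean was 7.09, the lowest of all. It shared scan batch 3 with replicate 3 of shEGR2_40.9. A hairpin and PLKO met in 1 scan batch each: batch 5 held replicate 1 of shEGR2_40.9 and of PLKO, and batch 1 held replicate 2 of shEGR2_38.9 and of PLKO. These pairs gave the within-batch values below.

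EGR2 is a zinc finger transcription factor of the early growth response family. It drives myelination in Schwann cells, the glia that wrap peripheral axons, and it is repressed by the corepressors NAB1 and NAB2. Blood vessels are lined by endothelial cells, which rest on a basement membrane of type IV collagen, laminin, nidogen and perlecan and are wrapped by pericytes or smooth muscle cells. Lymphatic vessels, specified by the transcription factor PROX1, and peripheral nerves run alongside blood vessels and respond to shared guidance cues.

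With the EGR2 hairpins, most blood and lymphatic endothelial genes above the floor for dim probes were higher than with PLKO, as were 10 of 28 matrix genes, and the largest changes were rises. Of 11844 genes, 2987 passed the test in the mean of both hairpins (25.2%), 1275 higher (10.8%) and 1712 lower (14.5%). The excess of lower calls turned round with only the 9 arrays compared, at 858 higher and 692 lower, with a change over 0.5 also required (525 and 175) and without PLKO replicate 2 (1101 and 1043). A gene is said below to have risen or fallen with both hairpins where the mean and each hairpin alone passed with the same sign. This held for 1074 genes (9.07%), of which 647 rose (5.46%) and 427 fell (3.61%). By size, 176 of them rose by more than 1 (1.49%) and 8 fell by more than 1 (0.0675%). In 984 of the 1074 (8.31% of all genes) the 6 EGR2 hairpin arrays all lay on 1 side of the 3 PLKO arrays, whereas over all genes all 6 lay above in 7.67% and below in 9.6%. The test was limma's moderated test, with p-values adjusted by Benjamini and Hochberg over all genes at a threshold of 0.05. With only the 9 arrays compared the count with both hairpins was 453, of which 348 rose and 105 fell. Without PLKO replicate 3 the count with both hairpins was 712. Without replicate 3 of shEGR2_38.9 it was 1401, and 1007 of the 1074 were among them.

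Galnt15, a glycosyltransferase that starts mucin-type O-glycosylation, had the largest rise. Its log2 values were 10.03, 9.83 and 10.02 with shEGR2_40.9 and 10.13, 10.32 and 9.84 with shEGR2_38.9, against 7.09, 7.61 and 6.39 with PLKO. All 6 EGR2 hairpin arrays lay more than 2 above every PLKO array. The difference was 3.00 (SE 0.24, limma adjusted p = 1.05e-08), and within batches it was 2.94 for shEGR2_40.9 and 2.71 for shEGR2_38.9. Its second probe set lay below the floor for dim probes, 6.27, in all 3 groups.

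Lgi2, which encodes a secreted leucine-rich repeat protein of the family of the epilepsy gene LGI1, had the largest fall. It stood at 6.71, 6.93 and 7.03 with shEGR2_40.9 and at 6.77, 6.73 and 7.11 with shEGR2_38.9, against 8.76, 8.24 and 8.46 with PLKO. The EGR2 hairpin arrays were all lower, and both hairpins lay at about the same level. The difference was -1.61 (SE 0.13, limma adjusted p = 7.04e-09), and a second probe set above the floor gave -0.61.

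The promoters of these genes are shown because EGR factors bind DNA through a known GC-rich element and these genes moved furthest in each direction. They are RefSeq sequences of GRCm38.p6, 250 bases before to 50 bases after the start site, with the 50 bases from the start site in capitals. Galnt15 lies at chr14:32028853-32029152 on the plus strand and Lgi2 at chr5:52566257-52566556 on the minus strand.
Galnt15: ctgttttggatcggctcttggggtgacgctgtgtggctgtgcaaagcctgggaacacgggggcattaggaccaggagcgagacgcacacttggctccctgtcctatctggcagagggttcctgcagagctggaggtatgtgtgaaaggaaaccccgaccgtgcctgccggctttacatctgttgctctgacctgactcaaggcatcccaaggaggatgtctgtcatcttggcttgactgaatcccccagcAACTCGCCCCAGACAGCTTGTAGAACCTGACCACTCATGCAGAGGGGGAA
Lgi2: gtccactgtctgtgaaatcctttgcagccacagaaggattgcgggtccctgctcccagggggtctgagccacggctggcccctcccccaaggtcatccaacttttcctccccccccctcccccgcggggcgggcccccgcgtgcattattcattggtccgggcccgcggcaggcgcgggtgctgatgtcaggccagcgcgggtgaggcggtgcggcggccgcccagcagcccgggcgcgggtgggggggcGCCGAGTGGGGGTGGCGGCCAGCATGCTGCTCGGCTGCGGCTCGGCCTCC
The EGR element was searched as GCGTGGGCG and GCGGGGGCG on both strands, counting a promoter once where both occurred. Neither promoter held either form in this window. Of the genes that rose with both hairpins, 50 of the 483 with a promoter in the table held 1 of them (10.4%), and of those that fell, 14 of 344 did (4.07%). The share was 7.7% over all 9502 tested genes with a promoter. In these shares a gene counted where any of its promoters held a form. Counted by single promoters, which is another unit, the share was 3.47% over all 32851 in the table. These shares describe the letters and show no binding.

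**Figure D1:**
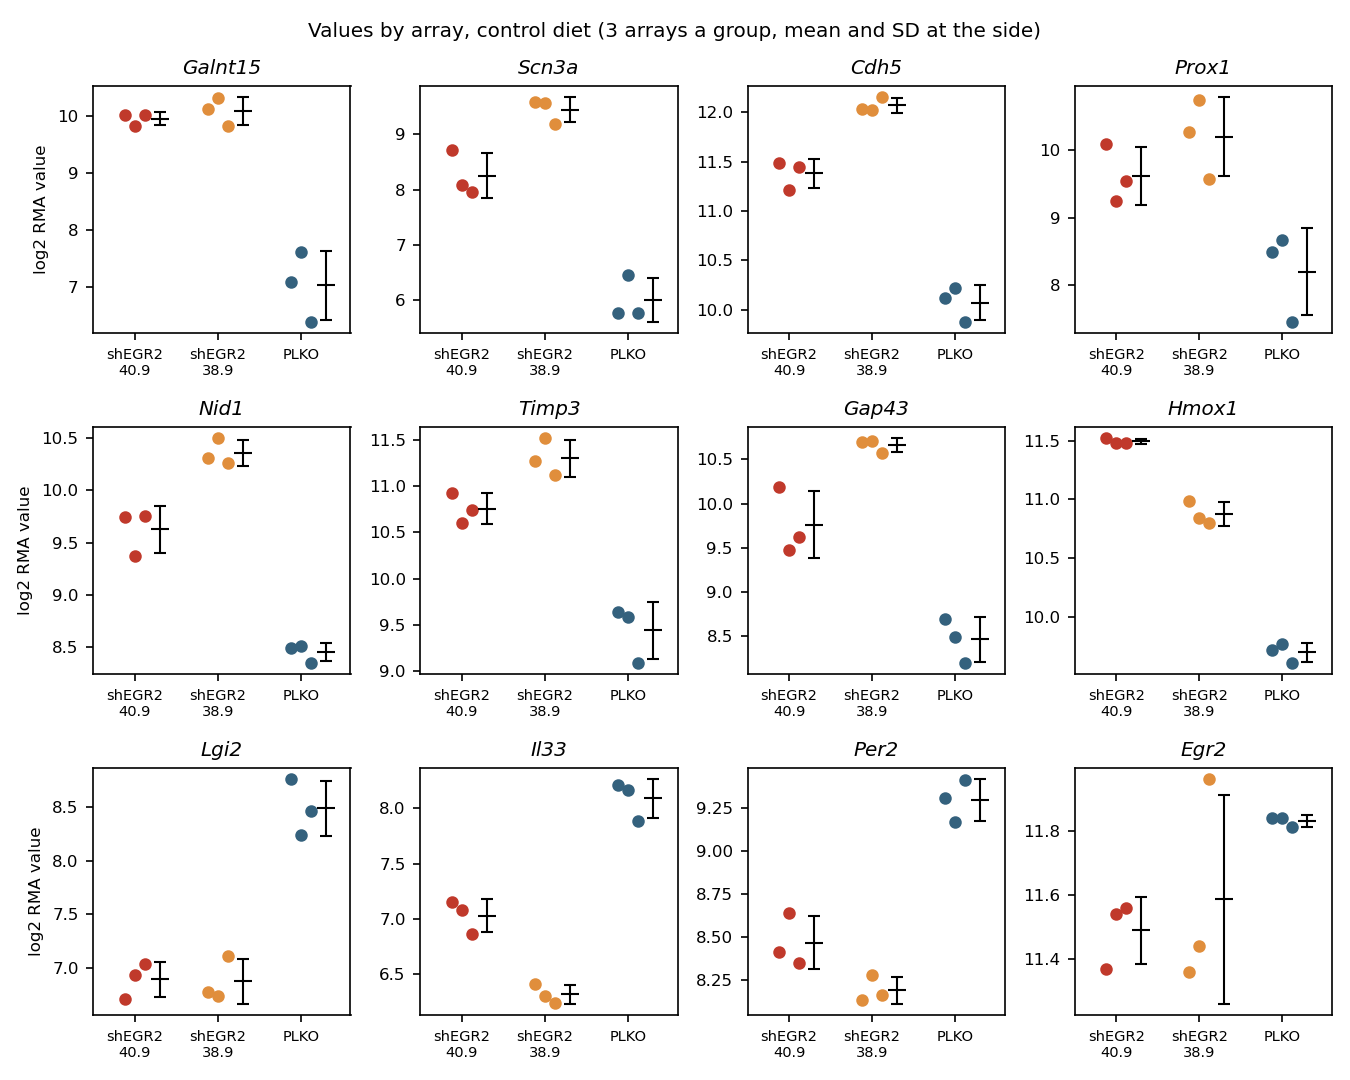
Log2 values (vertical axes) of 12 genes in the 3 arrays each of shEGR2_40.9, shEGR2_38.9 and PLKO on the control diet, left to right, with the mean and SD at the side of each group. In every panel but that of Egr2 the 6 EGR2 hairpin arrays lie apart from the 3 PLKO arrays. For Galnt15, Scn3a, Lgi2, Il33 and Per2 this was a condition of their choice. Galnt15 has the widest gap, and replicate 3 of shEGR2_38.9 has the highest Egr2 value, 11.96.

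The other leading rises were genes of channels, secreted proteins and matrix enzymes. Scn3a, a voltage-gated sodium channel, had values of 8.71, 8.09 and 7.95 with shEGR2_40.9 and 9.58, 9.57 and 9.18 with shEGR2_38.9, against 5.77, 6.45 and 5.77 with PLKO. Every array of shEGR2_38.9 lay above every array of shEGR2_40.9, and those above every PLKO array. The difference was 2.85 (SE 0.18, adjusted p = 2.46e-10), but the PLKO mean of 6.00 lay below the floor of 6.27, so its size is not exact. Of the 6 sodium channel genes above the floor Scn3a alone passed the test in the mean, and the other 5 changed by between -0.20 and -0.01.

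Adamts4, a protease that cleaves the proteoglycan aggrecan, rose by 2.08 (SE 0.28, adjusted p = 8.82e-06). Crispld2, which encodes a secreted cysteine-rich protein, rose by 2.17, and Fgl2, a fibrinogen-related protein made by macrophages and endothelium, by 1.92. Olfm1, a secreted olfactomedin of neural tissue, rose by 1.97 and the ubiquitin ligase gene Rnf125 by 1.85. Aqp1, the water channel of many endothelial cells, was at 11.06, 10.86 and 10.95 with shEGR2_40.9 and at 11.39, 11.39 and 10.82 with shEGR2_38.9, against 9.12, 9.66 and 8.89 with PLKO. All 6 EGR2 hairpin arrays lay above the PLKO arrays for Aqp1, as its choice required, and the difference was 1.86 (SE 0.19). Myct1, a gene named as a target of Myc and expressed in endothelium, rose by 2.07.

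Among the falls were genes of epithelia and of cytokine signalling. Plac8, a cysteine-rich protein of epithelial and myeloid cells, fell by 1.39, and Tmigd1, an adhesion protein of epithelia, by 1.37. The Tmigd1 means with both hairpins lay below the floor, so the size is not exact. Il33, an alarmin cytokine kept in nuclei of epithelial and endothelial cells, had values of 7.15, 7.08 and 6.86 with shEGR2_40.9 and 6.41, 6.30 and 6.24 with shEGR2_38.9, against 8.21, 8.17 and 7.89 with PLKO. All 6 EGR2 hairpin arrays were lower, and those of shEGR2_38.9 were lowest. The difference was -1.41 (SE 0.13, adjusted p = 8.13e-08), with within-batch values of -1.05 and -1.87. Hpgd, which inactivates prostaglandins, fell by 1.09, Foxq1, a forkhead factor of hair follicles, by 1.17, and Il1r2, the decoy receptor for interleukin 1, by 0.96.

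The labelled identity of the cells was checked against marker genes. Of 14 Schwann and glial markers, 11 were measured and 6 lay above the floor, among them the neural crest factor gene Sox10, with means of 7.47 with shEGR2_40.9, 7.44 with shEGR2_38.9 and 7.47 with PLKO. The 6 were Sox10, Erbb3, Ngfr, L1cam, Ncam1 and Gfra3, and S100b, Foxd3, Gfap, Fabp7 and Scn7a were below the floor. Of 26 neuronal markers 11 were above it, while the neurofilament genes Nefl, Nefm and Nefh and the synaptic genes Snap25, Syp and Syt1 were below it. The basal keratin genes Krt5 and Krt14 were far above the floor in all groups, with means between 12.77 and 13.21. The label was therefore borne out only in part by these markers, and keratinocyte markers were present throughout.

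With all arrays in the fit, neither glial identity nor myelin genes moved with both hairpins. Of the 6 Schwann and glial genes, 0 rose and 0 fell with both hairpins by limma, 1 passed in the mean as lower, and their changes lay between -0.17 and -0.02, beside a median of -0.06 over all genes. Of 9 myelin genes and EGR2 targets above the floor, 0 rose and 0 fell with both, and the median was -0.08. In the mean 1 was higher, Pmp22 (0.42, limma adjusted p = 0.0046), which passed with shEGR2_38.9 but not with shEGR2_40.9. The 1 that was lower in the mean was Egr2 itself. Without replicate 3 of shEGR2_38.9, the array that stood apart, 1 of the 9 rose with both hairpins and 1, Egr2, fell. The myelin genes Mag, Gjb1 and Cldn19 were below the floor. Of 11 neuronal genes 1 rose with both hairpins, Gap43, which encodes a protein of growth cones that is also made by repair Schwann cells. Gap43 stood at 10.19, 9.47 and 9.62 with shEGR2_40.9 and at 10.70, 10.71 and 10.57 with shEGR2_38.9, against 8.70, 8.49 and 8.20 with PLKO. No EGR2 hairpin array overlapped PLKO, and the difference was 1.75 (SE 0.14, adjusted p = 7.74e-09). Of 9 repair Schwann cell genes 1 rose, Gap43, and 1 fell. Sox2, a stem cell factor of repair Schwann cells and of epithelial progenitors, fell by 0.64 (adjusted p = 0.000276). With scan batch as a block its mean change was -0.61 (adjusted p = 0.00175), but it no longer passed in both hairpins.

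Mouse Egr2 was measured as well, though it does not check the silencing in the human cells. It was at 11.37, 11.54 and 11.56 with shEGR2_40.9 and at 11.36, 11.44 and 11.96 with shEGR2_38.9, against 11.84, 11.84 and 11.81 with PLKO. The array that stood apart was the only one above PLKO. The mean difference was -0.29 (SE 0.09, adjusted p = 0.0266), but it did not pass in both hairpins alone. Without that array the difference was -0.38 (adjusted p = 0.000127), and it passed in both hairpins alone, with shEGR2_38.9 at -0.43 (adjusted p = 0.000373). The second probe set gave -0.47. With only the 9 arrays compared the adjusted p was 0.14, and without PLKO replicate 1, 2 or 3 it was between 0.0671 and 0.0783. Of the 6 Egr and Nab genes 1 moved with both hairpins, as Egr4 fell by 0.36 (adjusted p = 0.0016). With scan batch as a block the mean change of Egr4 still passed (-0.28, adjusted p = 0.00995), but not both hairpins. Differences for Egr1 (-0.05), Egr3 (-0.19), the corepressors Nab1 (-0.21, adjusted p = 0.0506) and Nab2 (0.12) and for Gal (-0.01) did not pass.

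Blood endothelial genes formed the list with the most members higher. Of 18 of its 20 genes above the floor, 16 rose and 0 fell with both hairpins, with a median of 1.32, against 5.46% rising and a median of -0.06 over all genes. The mean level of the 18 was between 8.80 and 9.43 in the 6 EGR2 hairpin arrays, against 7.64 to 8.00 in the 3 PLKO arrays. In bulk RNA of this kind, more cells of a type and more RNA per cell cannot be told apart.

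Cdh5, the cadherin of endothelial junctions, had values of 11.49, 11.21 and 11.44 with shEGR2_40.9 and 12.03, 12.02 and 12.15 with shEGR2_38.9, against 10.12, 10.22 and 9.88 with PLKO. The 3 groups did not overlap. The difference was 1.65 (SE 0.14, adjusted p = 1.44e-08), and the second probe set gave 1.71. The receptors followed, with Tie1 at 1.75, the angiopoietin receptor gene Tek at 1.74 and Kdr, the main receptor of vascular endothelial growth factor, at 1.35. Tek was at 8.79, 8.50 and 8.33 with shEGR2_40.9 and at 9.01, 9.01 and 7.79 with shEGR2_38.9, against 6.75, 7.03 and 6.72 with PLKO. The array that stood apart was the lowest of the 6 but above all PLKO arrays.

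Junction and surface genes rose too, among them Pecam1, an adhesion molecule between endothelial cells (1.63), the tight junction gene Cldn5 (1.22), Esam (1.23) and the sialomucin gene Emcn (1.59). So did the transcription factor gene Erg (1.02), the receptor gene Robo4 (1.38) and the co-receptor gene Eng (1.00). Vwf, the platelet-binding factor of endothelial granules, was less even. It was at 9.19, 9.15 and 9.11 with shEGR2_40.9 and at 8.36, 8.21 and 7.57 with shEGR2_38.9, against 6.50, 8.05 and 6.04 with PLKO. The array of shEGR2_38.9 at 7.57 lay below PLKO replicate 2. The difference was 1.73 (SE 0.31, adjusted p = 0.000276), but within batches it was 2.68 for shEGR2_40.9 and 0.16 for shEGR2_38.9, and with scan batch as a block it did not pass in both hairpins. The 2 genes above the floor that did not rise with both hairpins were Flt1, a decoy receptor for the same growth factor (0.18, adjusted p = 0.398), and Sox18, which changed by 0.21 with shEGR2_40.9 and 0.57 with shEGR2_38.9.

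Lymphatic endothelial genes were higher as well. Of 8 of 10 genes above the floor, 6 rose and 0 fell with both hairpins, with a median of 1.59, and their mean level was 9.74 to 10.78 in EGR2 hairpin arrays against 8.66 to 9.20 in PLKO arrays. Prox1 had values of 10.09, 9.24 and 9.54 with shEGR2_40.9 and 10.27, 10.75 and 9.58 with shEGR2_38.9, against 8.48, 8.66 and 7.45 with PLKO. All 6 EGR2 hairpin arrays were above PLKO, the difference was 1.72 (SE 0.29, adjusted p = 0.000116) and the other probe sets gave 2.06 and 1.79.

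Flt4, the receptor for the lymphatic growth factor VEGFC, rose by 1.62 (SE 0.18), and Nr2f2, a nuclear receptor that cooperates with PROX1 and also marks veins, by 1.57. The secreted glycoprotein gene Reln rose by 1.75, the integrin gene Itga9 by 1.66 and the multimerin gene Mmrn1 by 1.36. The hyaluronan receptor gene Lyve1 (0.40, adjusted p = 0.000953) and Pdpn, a mucin-type protein also found on keratinocytes (0.33, adjusted p = 0.0201), passed in the mean and with shEGR2_38.9 but not with shEGR2_40.9. Foxc2, a factor of lymphatic valves, was below the floor.

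The endothelial lists held their medians within batches and without the array that stood apart. For blood endothelium the median was 1.26 within batch 5, 1.63 within batch 1 and 1.43 without that array, and for lymphatic endothelium it was 1.46, 1.87 and 1.62. With scan batch as a block 15 blood and 6 lymphatic genes rose with both hairpins.

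**Figure D2:**
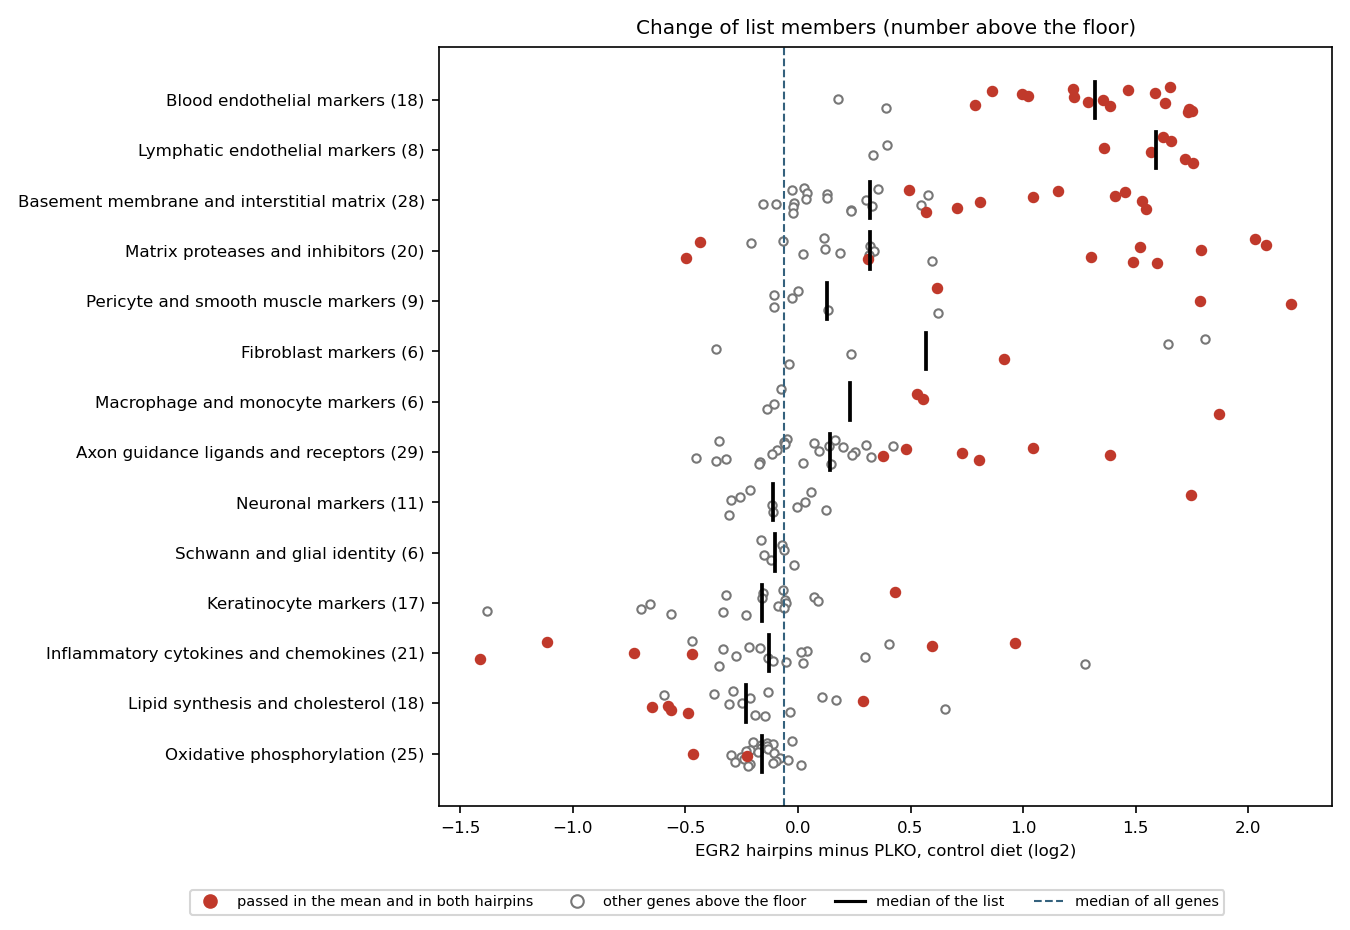
Change of each gene above the floor (horizontal axis, EGR2 hairpins minus PLKO on the control diet, log2) for 14 lists, with the number of genes in brackets. Filled points passed in the mean and in both hairpins, open points did not, black bars are list medians and the dashed line is the median of all genes, -0.06. Blood and lymphatic endothelial points lie almost wholly to the right, with medians of 1.32 and 1.59, whereas the glial points cluster near the dashed line.

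Basement membrane and interstitial matrix genes rose in part. Of 28 genes above the floor, 10 rose and 0 fell with both hairpins, with a median of 0.32, against 5.46% rising over all genes. The mean level of the list was 9.49 to 9.81 in EGR2 hairpin arrays against 9.07 to 9.24 in PLKO arrays, in the same arrays in which endothelial genes were higher, and the part of endothelial RNA in this result was not tested. Nid1, nidogen of the basement membrane, was at 9.75, 9.37 and 9.76 with shEGR2_40.9 and at 10.31, 10.50 and 10.26 with shEGR2_38.9, against 8.49, 8.51 and 8.35 with PLKO. Its 3 groups did not overlap, and the difference was 1.54 (SE 0.12, adjusted p = 4.51e-09).

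Of the vascular type IV collagens, Col4a1 rose by 1.16 (SE 0.15) and Col4a2 by 1.45 (SE 0.19). The laminin gamma gene Lamc1 rose by 0.71 and Hspg2, which encodes perlecan, by 0.81. Fn1, fibronectin, stood at 10.34, 9.85 and 9.94 with shEGR2_40.9 and at 10.90, 11.03 and 9.93 with shEGR2_38.9, against 8.75, 9.09 and 8.57 with PLKO. The lowest EGR2 hairpin array was above the highest PLKO array, and the difference was 1.53 (SE 0.23, adjusted p = 2.8e-05). The interstitial genes Col5a2 (1.41), Col6a1 (1.04) and Tnc, a matrix glycoprotein of remodelling tissue (0.57), rose too. Epithelial basement membrane genes did not pass, with changes of -0.10 for Lama3, -0.02 for Lamb3, -0.03 for Col17a1 and 0.03 for Col7a1.

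Matrix proteases and their inhibitors moved in both directions. Of 20 genes above the floor 8 rose and 2 fell with both hairpins, with a median of 0.32. The shares over all genes were 5.46% rising and 3.61% falling. The metalloprotease genes Adam12 (2.03, SE 0.23), Mmp13 (1.79, SE 0.21), Adamts4 and Adamts9 (1.52, SE 0.25) rose, and so did Plat, tissue plasminogen activator (1.30, SE 0.16). The inhibitors of metalloproteases rose alongside, with Timp2 at 1.49 and Timp3 at 1.59. Timp3, which binds to the matrix, had values of 10.93, 10.60 and 10.74 with shEGR2_40.9 and 11.27, 11.52 and 11.12 with shEGR2_38.9, against 9.64, 9.59 and 9.09 with PLKO. The groups were separate, and the other 3 probe sets gave 1.54, 1.87 and 1.78. The genes that fell were Plau, urokinase, by 0.50 and Adam8, a protease of leukocytes and epithelia, by 0.43. Among 18 integrin and focal adhesion genes 2 rose with both hairpins, of which Itgb3, the beta subunit of the vitronectin receptor of vessels and platelets, rose by 1.15.

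**Figure D3:**
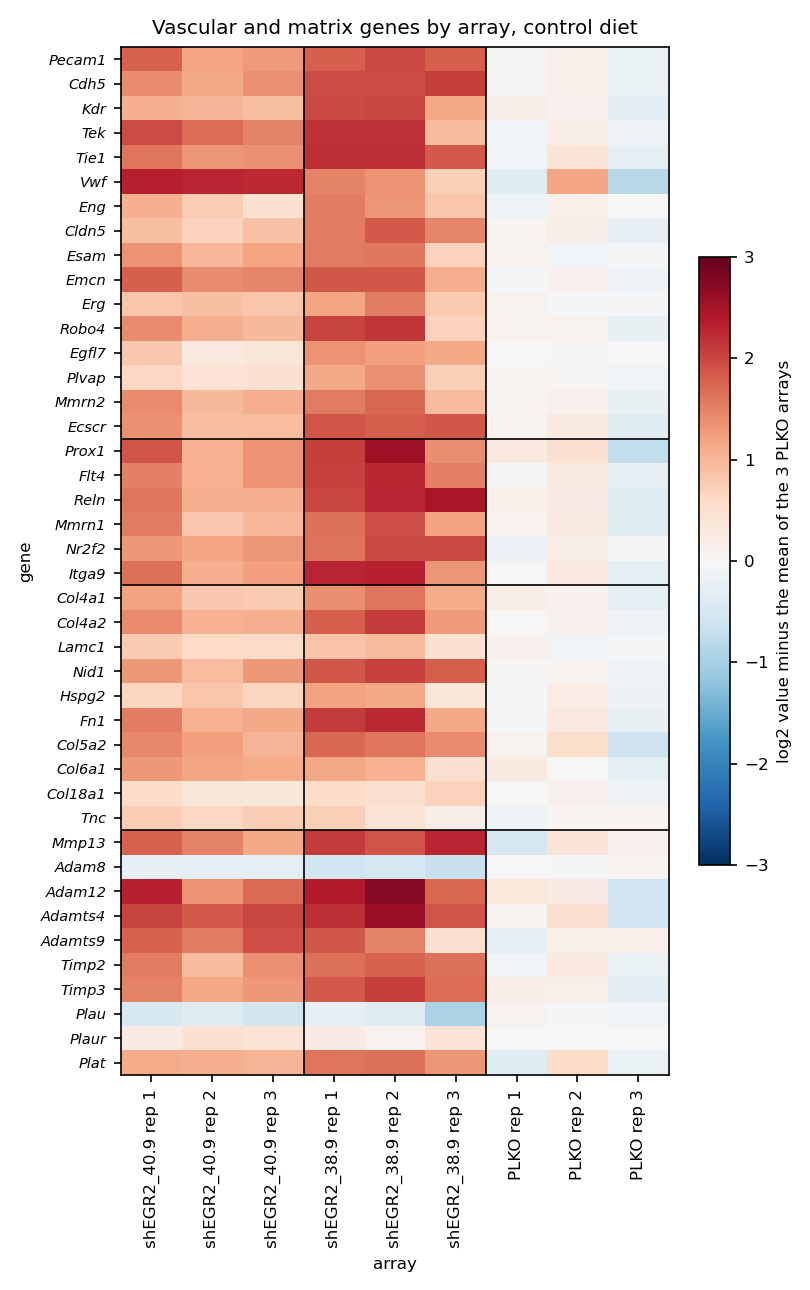
Log2 value minus the mean of the 3 PLKO arrays (colour scale) for the 42 blood endothelial, lymphatic, matrix, and protease and inhibitor genes that passed with both hairpins (rows, with black lines between the 4 lists), in the 9 control-diet arrays (columns, EGR2 hairpins left of PLKO). In 41 of the 42 the EGR2 hairpin arrays do not overlap PLKO, 40 are higher and 2 lower, and the deviations run from -0.95 to 2.72 in EGR2 hairpin arrays and from -0.82 to 1.19 in PLKO arrays.

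Markers of other cells that surround vessels moved less evenly. Of 9 pericyte and smooth muscle genes above the floor 3 rose with both hairpins, against 5.46% over all genes, and the median was 0.13. Mylk, the kinase that triggers smooth muscle contraction, was at 10.41, 10.09 and 10.02 with shEGR2_40.9 and at 10.57, 11.20 and 11.25 with shEGR2_38.9, against 8.37, 8.83 and 7.99 with PLKO. These values did not overlap, and the difference was 2.19 (SE 0.23, adjusted p = 3.03e-07). Smooth muscle myosin, Myh11, rose by 1.79 (SE 0.31). Acta2, smooth muscle actin, rose by 0.62, but a second probe set gave -0.47 and the mean over its probe sets did not pass (0.07, adjusted p = 0.443). Of the pericyte genes, Rgs5 passed in the mean (0.62, adjusted p = 0.0125) and with shEGR2_38.9 but not with shEGR2_40.9, while Pdgfrb (0.13), Des (-0.11) and Notch3 (-0.11) did not pass.

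Of 14 fibroblast markers 8 were below the floor, Pdgfra, Dpt, Lum and Col1a2 among them, and of the other 6 only Thy1, a surface glycoprotein that neurons also carry, rose with both hairpins (0.92, SE 0.07). Its values were 10.59, 10.49 and 10.45 with shEGR2_40.9 and 10.89, 10.76 and 10.54 with shEGR2_38.9, against 9.71, 9.70 and 9.70 with PLKO. The difference in Thy1 was thus far larger than the spread within any group. Col1a1 changed by 1.81 in the mean (adjusted p = 0.0313) but passed in neither hairpin alone.

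Macrophage markers were mostly below the floor, 9 of 15, Adgre1, Itgam, C1qa and Lyz2 among them. Of the other 6, 3 rose with both hairpins: Mrc1, the mannose receptor of macrophages and of lymphatic and sinusoidal endothelium, Cd68 (0.55) and Cd14 (0.53). Mrc1 was at 9.06, 8.54 and 8.63 with shEGR2_40.9 and at 9.70, 9.89 and 9.69 with shEGR2_38.9, against 7.34, 7.62 and 7.19 with PLKO. It was higher in all 6 arrays, by 1.87 (SE 0.14, adjusted p = 5.08e-09), whereas Csf1r changed by -0.11 and C1qc by -0.07. None of the 4 neutrophil and mast cell genes or the 4 lymphocyte genes above the floor passed. Of 4 adipocyte genes 1 rose, Fabp4, a fatty acid binding protein of adipocytes and capillary endothelium, by 1.98 (SE 0.30) while Adipoq and Lep were below the floor and Pparg changed by -0.03. Of 4 erythroid genes 1 rose, Alas2, the haem synthesis enzyme of erythroid cells, by 0.96 while Hba-a1 changed by 0.12. Of 17 keratinocyte genes, with a median of -0.16, 1 rose with both hairpins, Epcam (0.43). In the mean 5 of them were called lower, Krt4 (-0.66), Krt6b (-0.70), Sprr1a (-0.33), Sprr1b (-0.57) and Trp63 (-0.23), which passed with shEGR2_38.9 but not with shEGR2_40.9. The list median was 0.02 with shEGR2_40.9 and -0.29 with shEGR2_38.9. Of 12 hair and papilla genes 1 fell, Hoxc13 (-1.07), a homeobox regulator of hair keratins. Beside the counts of these lists, 5.46% of all genes rose and 3.61% fell with both hairpins, and 14.5% were lower in the mean.

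Genes that guide axons and vessels rose in part. Of 29 axon guidance genes above the floor 8 rose and 3 fell in the mean, and 6 rose and 0 fell with both hairpins, with a median of 0.14. Over all genes 10.8% rose and 14.5% fell in the mean, and 5.46% rose and 3.61% fell with both hairpins. Ntn1, the secreted cue netrin 1, rose by 1.04 (SE 0.14, adjusted p = 1.15e-05), Sema6a, a transmembrane semaphorin, by 0.80 and Plxnd1, a semaphorin receptor of vessels, by 0.73. Sema6a was at 9.85, 9.60 and 9.74 with shEGR2_40.9 and at 9.85, 9.73 and 9.71 with shEGR2_38.9, against 8.87, 9.01 and 8.95 with PLKO. Both hairpins gave the same level there, apart from PLKO. Robo4, counted above with endothelium, belongs to this list too. Calcrl, the receptor of adrenomedullin and of the sensory neuropeptide CGRP, rose by 2.01 (SE 0.18, adjusted p = 5.01e-08), and of the 8 ligand and receptor genes of its list above the floor it alone passed. Its co-receptor genes Ramp1 (0.05), Ramp2 (-0.07) and Ramp3 (0.15) did not.

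Growth factor signalling genes were mixed, beside 5.46% of all genes rising and 3.61% falling with both hairpins. Of 23 TGF-beta and BMP genes 3 rose and 2 fell with both hairpins. Those that rose were the ligand gene Tgfb3 (1.27, SE 0.16) and the endothelial receptor genes Acvrl1 (0.67) and Eng, and those that fell were Id3, an inhibitor of differentiation induced by BMP (-0.68), and the inhibitory gene Smad7 (-0.43). For Acvrl1 1 EGR2 hairpin array, at 8.18, lay below the highest PLKO array, at 8.20. Of 11 Yap and Taz genes 3 rose with both hairpins, including Tead1, a DNA-binding partner of YAP (0.95), and Lats2, a kinase that restrains YAP (0.98), while the widely used targets Ccn1 and Ccn2 changed by -0.00 and -0.03. Of 21 immediate early genes 1 rose and 2 fell with both hairpins, the falls being Ier2 (-0.59) and Btg2 (-0.38). Of 13 Notch genes only the ligand gene Dll1 moved with both, by -0.38, and without the array that stood apart it did not pass in both.

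Inflammatory genes moved in both directions. Of 21 cytokine and chemokine genes 4 fell and 2 rose with both hairpins, 6 were lower and 5 higher in the mean, and the median was -0.13. The shares over all genes were 3.61% falling and 5.46% rising with both hairpins, and 14.5% lower and 10.8% higher in the mean. Ccl20, a chemokine that draws CCR6-bearing cells, was at 8.42, 8.43 and 8.45 with shEGR2_40.9 and at 8.07, 8.01 and 7.94 with shEGR2_38.9, against 9.27, 9.24 and 9.49 with PLKO. The 3 groups were apart, and the difference was -1.11 (SE 0.07, adjusted p = 2.46e-10). Besides Ccl20 and Il33 the falls were Il18 (-0.73), whose EGR2 hairpin means lay below the floor, and Il1a (-0.47), in which 1 EGR2 hairpin array, at 8.22, lay above the lowest PLKO array, at 8.21, and which did not pass in both hairpins with scan batch as a block. Il23a, a subunit of interleukin 23 outside that list, fell by 0.93 to means below the floor. The rises were Csf1, the growth factor of macrophages (0.59), and the skin chemokine gene Ccl27a (0.96), of whose 3 other probe sets 1 had the opposite sign. Of 11 interferon response genes 2 fell and 0 rose with both hairpins, Ifit1 by 0.92 and Oasl2 by 0.50. The within-batch values of Ifit1 were -1.68 and -0.13.

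Metabolic genes moved in part. Of 18 lipid and cholesterol synthesis genes 8 were lower and 2 higher in the mean, and the median was -0.23. With both hairpins 4 of them fell and 1 rose. Over all genes 14.5% were lower and 10.8% higher in the mean, and 3.61% fell and 5.46% rose with both hairpins. The falls were those of the sterol pathway, Fdps (-0.58, SE 0.06), Idi1 (-0.65, SE 0.11) and Lss (-0.56, SE 0.10), and of Scd1, the stearoyl-CoA desaturase (-0.49, SE 0.08). Fdps was at 8.77, 8.78 and 8.53 with shEGR2_40.9 and at 8.32, 8.34 and 8.22 with shEGR2_38.9, against 9.13, 9.01 and 9.08 with PLKO. All EGR2 hairpin arrays were lower for Fdps. Lss means with both hairpins lay below the floor. Angptl4, a secreted inhibitor of lipoprotein lipase, rose by 1.15 (SE 0.11). Of 14 oxidative stress genes 4 were higher and 4 lower in the mean, and the median was -0.19, against -0.06 over all genes. With both hairpins 0 fell and 2 rose, Gclc, an enzyme of glutathione synthesis (0.47), and Hmox1, haem oxygenase. Hmox1 was at 11.52, 11.48 and 11.48 with shEGR2_40.9 and at 10.99, 10.84 and 10.80 with shEGR2_38.9, against 9.72, 9.77 and 9.61 with PLKO. These groups were tight and far apart, with a difference of 1.48 (SE 0.08, adjusted p = 2.65e-11).

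Per2, a repressor of the circadian clock, was the clock gene that moved furthest. It stood at 8.41, 8.64 and 8.35 with shEGR2_40.9 and at 8.13, 8.28 and 8.16 with shEGR2_38.9, against 9.31, 9.17 and 9.41 with PLKO. The EGR2 hairpin arrays were all lower, by 0.97 in the mean (SE 0.09, adjusted p = 6.78e-08). Of 16 clock genes 2 fell and 2 rose with both hairpins, with Hlf, a clock output factor, at -0.46 and the repressor gene Nr1d2 at 0.44. The hour of tissue collection is not given in the sources used here. Of 24 cell cycle genes 4 rose and 0 fell, among them Cenpa (0.54), Cenpf (0.59), Mki67 (0.36) and Ccnb2 (0.36), and with scan batch as a block Cenpf and Mki67 passed in the mean but not in both hairpins. Of 25 oxidative phosphorylation genes 2 fell, Ndufa4 (-0.47) among them, and 0 did with scan batch as a block. Beside these counts, 5.46% of all genes rose and 3.61% fell with both hairpins.

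Few of these genes passed on the PA-rich diet, where 132 genes passed for the EGR2 hairpins against PLKO (1.11%). Of the 647 genes that rose with both hairpins on the control diet 25 were called higher on the PA-rich diet, beside 0.794% of all genes, and of the 427 that fell 11 were called lower, beside 0.321%. The difference between the diets was tested directly, and 1154 genes passed (9.74%), 541 higher (4.57%) and 613 lower (5.18%) on the control diet. Of the 647 rises 417 were larger on the control diet by this test, and of the 427 falls 230 were. The differences within the 2 diets share no array, but this test uses the control-diet arrays by which the rises and falls were chosen.

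Vascular genes were among those that passed this test. Of 18 blood endothelial genes 16 and of 8 lymphatic genes 7 had a higher difference on the control diet. The medians on the PA-rich diet were 0.24 and 0.28, with 0 genes called there in either list. These values are of the mean of both hairpins, which were not tested singly on that diet and were not alike there. Flt4 averaged 8.38 with shEGR2_40.9 and 9.56 with shEGR2_38.9, against 8.69 with PLKO, and Prox1 averaged 7.23 and 8.16, against 7.35. For Tek shEGR2_40.9 was the higher, at 7.30 and 7.05, against 6.62. The difference of Cdh5, 1.65 with the control diet and 0.30 with the PA-rich diet, differed between them by 1.36 (SE 0.19, limma adjusted p = 8.87e-05). On the PA-rich diet Cdh5 averaged 9.80 with shEGR2_40.9 and 10.36 with shEGR2_38.9, against 9.78 with PLKO. For Scn3a the diets differed by 2.35 (adjusted p = 3.69e-06), for Galnt15 by 2.71 (adjusted p = 2.71e-05), for Gap43 by 1.71 (adjusted p = 7.08e-06) and for Lgi2 by -1.94 (adjusted p = 8.88e-07). Vwf did not pass (0.68, adjusted p = 0.404), and Fabp4 did not either (1.27, adjusted p = 0.0621). Of the lipid synthesis genes 8 of 18 were lower on the control diet in this test. Fdps, which fell with both hairpins on the control diet, was higher in their mean on the PA-rich diet, by 0.33 (limma adjusted p = 0.0075). Most of that rise lay with shEGR2_40.9. Fdps averaged 9.32 there with shEGR2_40.9 and 8.83 with shEGR2_38.9, against 8.74 (SD 0.11) with PLKO. Ccl20 was lower in the mean of the hairpins on both diets, by 0.50 on the PA-rich diet (limma adjusted p = 0.000585).

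Against shGAL, a hairpin to a gene other than EGR2, the EGR2 hairpins differed in 3464 genes on the control diet (29.2%), 1565 higher (13.2%) and 1899 lower (16%). Higher calls outnumbered lower ones with only the arrays compared (980 and 730), with scan batch as a block (1437 and 1418), with a change over 0.5 (590 and 274) and without shGAL replicate 2 (1214 and 1162). Of the 647 rises against PLKO 482 were also higher than with shGAL, and of the 427 falls 150 were also lower. Of the blood endothelial genes 17 of 18 and of the lymphatic genes 7 of 8 were higher than with shGAL. The test against shGAL and that against PLKO share the 6 EGR2 hairpin arrays, and shGAL against PLKO, which called 2013 genes (17%, 7.15% higher and 9.84% lower), shares the PLKO arrays, so values are given side by side. The median change of the blood endothelial list was 1.32 with the EGR2 hairpins and -0.11 with shGAL, both against PLKO, and that of the lymphatic list was 1.59 and -0.70. Cdh5 averaged 11.38 with shEGR2_40.9 and 12.07 with shEGR2_38.9, against 9.89 with shGAL, and the EGR2 hairpin mean was higher by 1.83 (SE 0.14, adjusted p = 1.62e-09).

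Other genes changed with shGAL as well. Hmox1 changed by 1.48 with the EGR2 hairpins and by 1.46 with shGAL, each against PLKO, and the EGR2 hairpins and shGAL differed by 0.03 (SE 0.08, adjusted p = 0.808). Per2 changed by -0.97 with the EGR2 hairpins and -1.10 with shGAL, and Idi1 by -0.65 and -0.64. Several of the leading falls were also lower with shGAL than with PLKO. Lgi2 changed by -1.61 with the EGR2 hairpins and by -0.77 with shGAL, and Ccl20 by -1.11 and -0.89. Tmigd1 changed by -1.37 and -0.88, and Hpgd by -1.09 and -1.56. Others did not fall with shGAL, as Il33 changed by -1.41 and 0.25 and Hoxc13 by -1.07 and 0.17. Mouse Egr2 changed by -0.29 with the EGR2 hairpins and by -0.78 with shGAL, and was higher with the EGR2 hairpins than with shGAL by 0.49 (SE 0.09, adjusted p = 0.000343). Mmp13 was lower with the EGR2 hairpins than with shGAL, by 0.89 (SE 0.21, adjusted p = 0.00314), as it changed by 1.79 with the EGR2 hairpins and 2.68 with shGAL.

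**Figure D4:**
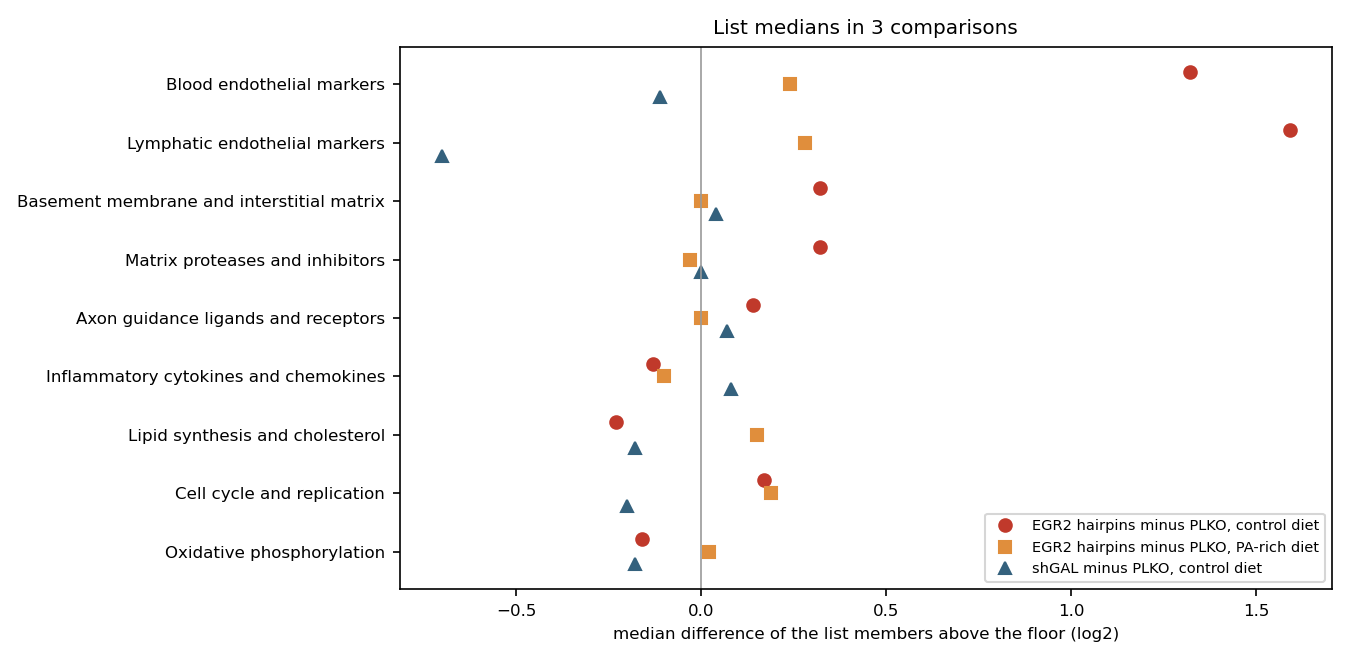
Median difference (horizontal axis, log2) over the genes above the floor of 9 lists, for the EGR2 hairpins minus PLKO on the control diet (circles), the EGR2 hairpins minus PLKO on the PA-rich diet (squares) and shGAL minus PLKO on the control diet (triangles). Circles and triangles share the PLKO arrays. The endothelial circles lie at 1.32 and 1.59, against 0.24 and 0.28 for the squares and -0.11 and -0.70 for the triangles.

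More genes passed with shEGR2_38.9 than with shEGR2_40.9, both set against the same PLKO arrays. Against PLKO 1436 genes passed with shEGR2_40.9 (12.1%), 851 higher (7.19%) and 585 lower (4.94%), and 3595 with shEGR2_38.9 (30.4%), 1331 higher (11.2%) and 2264 lower (19.1%). With shEGR2_38.9 the excess of lower calls was not seen with only the arrays compared (745 higher and 725 lower) or with a change over 0.5 (646 and 509), and with shEGR2_40.9 the split was 801 and 803 after renewed quantile normalization. Tested directly, shEGR2_40.9 and shEGR2_38.9 differed in 1408 genes (11.9%), of which 896 were higher with shEGR2_40.9 (7.57%) and 512 lower (4.32%). This split was 672 and 679 after renewed quantile normalization, and 650 and 569 without replicate 3 of shEGR2_38.9, the array that stood apart. Without that array shEGR2_38.9 against PLKO gave 1396 higher and 1810 lower. The count between the hairpins was 822 without replicate 2 and 863 without replicate 3 of shEGR2_40.9. That for shEGR2_40.9 against PLKO was 943 without PLKO replicate 3. Of the 1074 genes that moved with both hairpins 228 differed between them (21.2%), and in 204 of these the change was larger with shEGR2_38.9. The blood endothelial median was 1.12 with shEGR2_40.9 and 1.51 with shEGR2_38.9, and 9 of its 18 genes differed between the hairpins. Hmox1, Ifit1 and Nr1d2 had the larger change with shEGR2_40.9.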

How the data were processed

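RNA of neural fraction cells had been hybridised to Affymetrix mouse arrays. Per the submitters' processing notes, the authors made the deposited log2 values by RMA (affy); no version is named there. They ran from 3.91 to 13.6. The array values carry no count depth.

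Of 45141 probe sets, 28898 had 1 gene symbol, 551 several and 15692 none in the platform annotation, and only those with 1 were used. This left 17097 genes, of which 7180 had more than 1 probe set and were represented by that with the highest mean over all arrays. A floor at percentile 40 of the probe sets' means (6.27) removed dim genes and kept 11844. Genes of a list with no such probe set were not analysed here.

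The 8 group means were fitted over all 24 arrays with limma 3.58.1 in R 4.3.3 (two-sided moderated tests, 16 residual and 6.21 prior degrees of freedom, Benjamini-Hochberg adjustment over 11844 genes, threshold 0.05). The procedure was tested on simulated data. The question, members, 40 gene lists, tests and named genes were chosen with earlier results of these data known. Named genes were the 15 rises and 15 falls with the largest change, by the smaller change of the hairpins, among genes that passed in both hairpins with separate arrays; every list member that passed in both; and Egr1, Egr2, Egr3, Nab1, Nab2 and Gal. Other list members named, as markers or as genes that did not pass, were chosen after their values were seen. Lists overlap in a few genes, such as Robo4, Eng, Tnc, Gap43 and Fabp4. Alternatives were scan batch or replicate number as a block, only the arrays compared, no filter, 2 renormalizations, the mean of all probe sets, array weights, a size threshold and leaving out each array. No 2 arrays held identical values, and no array was left out of the fit over 24. Promoters came from RefSeq (GRCm38.p6), which held no entry for every gene, and those on chromosome 18 were left out.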

Additional observations from a re-analysis of the deposited data

Results flagged for a closer look

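Effects of the EGR2 hairpins that differed between the hairpins or between the diets by a direct test are listed here, with adjusted p-values from limma over all genes. On the control diet, shEGR2_40.9 and shEGR2_38.9 differed in 1408 genes, and the difference from PLKO differed between the control and PA-rich diets in 1154.

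Of the 116 genes in the text that were named by the rule given above, 30 differed between the hairpins. Their adjusted p-values ran from 1.39e-06 to 0.0491, and 27 of them had the larger change with shEGR2_38.9. Other genes in the text are not in this count. Values are shEGR2_40.9 minus shEGR2_38.9 on the log2 scale. Each of the 30 had the same sign against PLKO in both hairpins, as its choice required. Among endothelial genes the difference was -0.79 for Cldn5, -0.71 for Kdr, -0.69 for Cdh5, -0.64 for Tie1 and -0.48 for Eng. Among lymphatic and guidance genes it was -0.98 for Reln, -0.60 for Nr2f2, -0.77 for Plxnd1 and -0.69 for Calcrl. Among matrix and contractile genes it was -0.73 for Nid1, -0.54 for Timp3, -0.84 for Mylk and 0.32 for Adam8. Scn3a differed by -1.19 and Gap43 by -0.90. For the macrophage and cytokine genes the values were -1.01 for Mrc1, -0.98 for Tgfb3, -0.81 for Ccl27a, -0.29 for Csf1, 0.42 for Ccl20 and 0.71 for Il33, and for the interferon gene Ifit1 -0.77. The metabolic and stress genes gave -0.60 for Angptl4, 0.40 for Fdps, 0.61 for Hmox1, 0.26 for Asns and 0.34 for Ndufa4. The remaining genes gave -0.36 for Lats2, 0.28 for Nr1d2 and 0.37 for Tmigd1. Without replicate 3 of shEGR2_38.9, the array that stood apart, the count of genes that differed between the hairpins was 1219.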

How the results depend on the processing

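The number and quality of arrays limit these results. With only the arrays compared, the counts were 1550 for the mean of the EGR2 hairpins against PLKO, 453 with both hairpins, 950 for shEGR2_40.9, 1470 for shEGR2_38.9, 299 between the hairpins and 1710 against shGAL; this fit had 6 residual degrees of freedom for the 9 arrays. Requiring a change over 0.5 as well gave 700, 554, 507, 1155, 445 and 864 in the same order, and 650 for the control minus the PA-rich diet, which array weights brought to 1898. Leaving out 1 array at a time gave 2053 to 3327 for the mean, 712 to 1401 with both hairpins, 943 to 1318 for shEGR2_40.9, 2763 to 4018 for shEGR2_38.9, 822 to 1810 between the hairpins, 771 to 1603 between the diets and 2376 to 4026 against shGAL.

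Scan batch as a block gave 2520 genes in the mean and 942 with both hairpins. Of the 1074 genes that moved with both hairpins in the main fit, 791 (73.6%) were among the 942. The main fit did not pair arrays by replicate number. Of 9 same-number pairs of arrays 3 had residual correlations over 0.1, and the range was -0.001 to 0.244. Of 18 other pairs 2 did, and the range was -0.158 to 0.133. The replicate block gave 3070 and 1100. Of 1969 values of the named genes under alternatives, 1943 kept their direction and side of the threshold, 14 lost a call, 8 gained one and 4 changed sign, all 4 of Gal, whose change lay between -0.06 and 0.02 when arrays were left out. Egr2 lost its call in 8 of its alternatives; Acta2 (0.07), Eif2ak3 (0.02) and Acadl (0.13) did with the mean of all probe sets. Of 680 list medians under alternatives 25 moved by more than their spread between replicates, and 90 of 680 list counts by over 1.5 times; causes were not tested.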

Other observations

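Other lists moved in few members with EGR2 hairpins in mice on the control diet, where 5.46% of all genes rose and 3.61% fell with both hairpins. Of 17 hypoxia and glycolysis genes 1 fell with both hairpins, Egln3, an oxygen-sensing prolyl hydroxylase, by 0.89 (SE 0.12, limma adjusted p = 1.44e-05), while the angiogenic factor gene Vegfa changed by -0.05. Of 21 unfolded protein and stress genes 2 rose and 1 fell with both. Chac1, which degrades glutathione, rose by 0.99, Eif2ak3 by 0.37 and the asparagine synthetase gene Asns fell by 0.40, which passed in the mean but not in both hairpins with scan batch as a block. A second probe set of Eif2ak3 above the floor gave -0.23. Of 15 genes of fatty acid uptake and oxidation 3 rose with both, Fabp4, Angptl4 and the acyl-CoA dehydrogenase gene Acadl (0.24). Acadl did not pass in both hairpins without replicate 3 of shEGR2_38.9, nor in the mean with only the arrays compared (limma adjusted p = 0.0814) or without PLKO replicate 1 (0.0595).

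Of 14 neurotrophic factor and receptor genes 1 rose with both hairpins, Lifr, the receptor of leukaemia inhibitory factor (0.58), in which the arrays of the groups overlapped. The glial factor genes Gdnf (0.07) and Nrg1 (0.07) did not pass in the mean. Of 12 perineuronal net and hyaluronan genes Tnc alone moved with both. Of 8 skeletal muscle genes above the floor 2 fell with both, Ryr1 by 0.43 and Tnni2 by 0.31. Tnni2 did not pass in both with scan batch as a block, nor in the mean with only the arrays compared (limma adjusted p = 0.0692). Of this list 8 of the 16 genes, Acta1, Ttn and Myh4 among them, were below the floor. The 1 melanocyte gene above the floor, Pmel, changed by 0.04.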
